A study of Homo sapiens with 120 samples.

Results

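The genes described here are SRF, MYOCD and 8 genes of the actin cytoskeleton, ACTB, ACTG1, ACTA2, VCL, TPM1, MYL9, TAGLN and CNN1. They were taken by symbol from the deposited tables of estimated counts and of TPM (a share of transcripts corrected for length), where each had 1 row, which makes 10 of 57665 genes. All 10 passed the filter on low counts that left 26998 genes for testing. The cells were U2OS, an established human osteosarcoma line, and 120 wells in 40 groups of 3 gave RNA. Dmr-PERK cells carried a stable construct in which the kinase domain of mouse PERK, which phosphorylates the translation factor eIF2α, is joined to the DmrB domain, so that the ligand AP20187 (dimerizer) brings copies together and switches the kinase on. Parental cells were U2OS cells without the construct, and every well is labelled WT. Each line received 0.2 nM dimerizer, 100 nM thapsigargin, which blocks the SERCA calcium pumps and causes endoplasmic reticulum stress, or 0.05 mM sodium arsenite, which causes oxidative stress, doses that the submitters picked for similar phosphorylation of eIF2α, for 2, 4, 8, 16 or 24 h. Untreated wells of each line were collected at 0, 4, 8, 16 and 24 h. The study asked which responses follow from eIF2α phosphorylation alone, known as the integrated stress response, and which need the broader stressors. The promoter of the construct, and whether the Dmr-PERK line is 1 clone, are not given in the sources used here.

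SRF is a transcription factor that binds the CArG box, a short A- and T-rich element, and works with partner proteins. The myocardin family of partners, MYOCD and the related MRTF proteins, turns on genes of the actin cytoskeleton and of smooth muscle, and the TCF partners of the ELK family turn on immediate early genes. MRTF proteins bind actin monomers and are held in the cytoplasm by them, so that building filaments frees MRTF to enter the nucleus, which links actin itself to the expression of actin genes. SRF is also a target of its own pathway, and myocardin is best known from heart and smooth muscle, where it drives contractile genes.

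Each library held 1.29e+07 to 5.65e+07 estimated counts, and the 10 genes together took 0.169% to 1.22% of a library. Mitochondrially encoded genes took 2.72% to 6.61%. Counts assigned to EIF2AK3, the human gene of PERK, averaged 929.6 ± 80.3 CPM (counts scaled to library size) in untreated Dmr-PERK wells and 33.8 ± 10.1 CPM in untreated Parental wells (SD, n = 15 each). The Dmr-PERK library of arsenite at 4 h, replicate 3, and the Parental library of arsenite at 24 h, replicate 3, stood apart from their groups. Of markers of the labelled cell type, COL1A1 had a median of 930.2 CPM over Dmr-PERK and 3674 CPM over Parental libraries and RUNX2 one of 31.4 CPM over all libraries, while SP7 was at 0 in 77 libraries and IBSP in 82. Of smooth muscle markers SMTN had a median of 176 CPM, MYH11 of 2.29 CPM and DES of 1.07 CPM. The 10 skeletal and cardiac muscle markers summed to 3.04 to 56.4 CPM, with TNNT2 at a median of 30.3 CPM and at 0 in no library and MYF5 at 0 in 115. The 11 epithelial, endothelial and blood cell markers summed to 5.36 to 38.6 CPM, with EPCAM at a median of 3.36 CPM, PTPRC at 0 in 1 library and CD3E at 0 in 99. The replicates are wells, and no source used here says that they came from separate cultures, so p-values measure the spread between wells, which may be technical.

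RefSeq promoter windows on GRCh38.p14, each from 250 bases before to 50 bases after a gene start, were found for 6 of the 10 genes and searched on both strands for the CArG box in its strict form and in a looser form with 5 of its 6 middle letters A or T. The strict form was in 454 of all 35116 windows (1.29%) and the looser form in 2854 (8.13%). The boxes are shown with their flanks, the box in capitals, because they are the letters SRF is known to bind. Each is given 5′ to 3′ on the strand of its gene.
SRF, chr6:43171224-43171263, plus strand, box starting 30 bases before the gene start: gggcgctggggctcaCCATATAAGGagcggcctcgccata
SRF, chr6:43171244-43171268, plus strand, box starting 10 bases before the gene start: taaggagcggcctcgCCATAAAAGG
ACTG1, chr17:81512869-81512908, minus strand, box starting 94 bases before the gene start: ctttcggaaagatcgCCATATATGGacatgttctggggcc
ACTA2, chr10:88952870-88952909, minus strand, looser form, 121 bases before the second listed start: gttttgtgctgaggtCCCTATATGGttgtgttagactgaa
ACTA2, chr10:88952820-88952859, minus strand, looser form, 71 bases before the second listed start: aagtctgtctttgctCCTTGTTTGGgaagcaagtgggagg
SRF and ACTG1 thus held the strict form, SRF in a pair of copies that stand next to each other. No box in either form was found in the windows of VCL, TPM1 and CNN1, in the first window of ACTA2 or in the second window of SRF, which says only that these letters are not in those windows.

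ACTB and ACTG1 encode the cytoplasmic β- and γ-actins, and ACTA2 the α-actin of smooth muscle. Their coding sequences are close, which bears on how reads were shared between them: ACTG1 matched ACTB at 91.2% of 1128 bases, and ACTA2 matched ACTB at 81.7% and ACTG1 at 81.9%. The first 60 coding bases of the pair, from GENCODE 29, show the 10 differing bases in capitals.
ACTB, chromosome 7: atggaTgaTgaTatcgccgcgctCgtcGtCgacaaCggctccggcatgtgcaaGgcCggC
ACTG1, chromosome 17: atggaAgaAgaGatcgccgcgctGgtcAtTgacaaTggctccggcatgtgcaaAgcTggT
Of all 31-base stretches of its transcripts, ACTB shared 16.0% with other genes, its retrocopies among them, ACTG1 12.1% and ACTA2 4.54%, while SRF and TAGLN shared none. How far this sharing affects the values of the actins was not tested. GENCODE 29 places SRF on chromosome 6 from 43171299 to 43181507, MYOCD on chromosome 17 from 12665890 to 12768949, ACTA2 on chromosome 10 from 88935074 to 88991339, TAGLN on chromosome 11 from 117199321 to 117204782, CNN1 on chromosome 19 from 11538717 to 11550323 and MYL9 on chromosome 20 from 36541484 to 36551447 (GRCh38, all protein coding).

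Before any treatment the 10 genes spanned a wide range of levels. Per length, ACTB stood highest in untreated wells, at 4337 ± 612 TPM in Dmr-PERK cells against 4605 ± 746 TPM in Parental cells (SD over 15 wells at 0 to 24 h, which includes change with time). ACTG1 followed, at 2395 ± 619.6 TPM in Dmr-PERK cells against 2619 ± 701 TPM in Parental cells. Next came TPM1, a tropomyosin that winds along actin filaments, at 437 ± 67.2 TPM in Dmr-PERK cells against 544 ± 82.1 TPM in Parental cells. MYL9, a regulatory light chain of myosin, and TAGLN, the actin-binding protein transgelin, lay within each other's spread, MYL9 at 281 ± 46.6 and TAGLN at 263 ± 76.7 TPM in Dmr-PERK cells. CNN1, the smooth muscle protein calponin, averaged 139 ± 39.1 TPM in Dmr-PERK cells against 68.0 ± 17.9 TPM in Parental cells. VCL, vinculin, which ties filaments to adhesion sites, averaged 94.2 ± 25.8 TPM in Dmr-PERK cells against 89.0 ± 30.9 TPM in Parental cells, so that CNN1 and VCL changed places in the order between the lines. SRF averaged 39.4 ± 23.0 TPM in Dmr-PERK cells against 46.9 ± 26.6 TPM in Parental cells. ACTA2 and MYOCD were lowest in both lines.

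**Figure D1:**
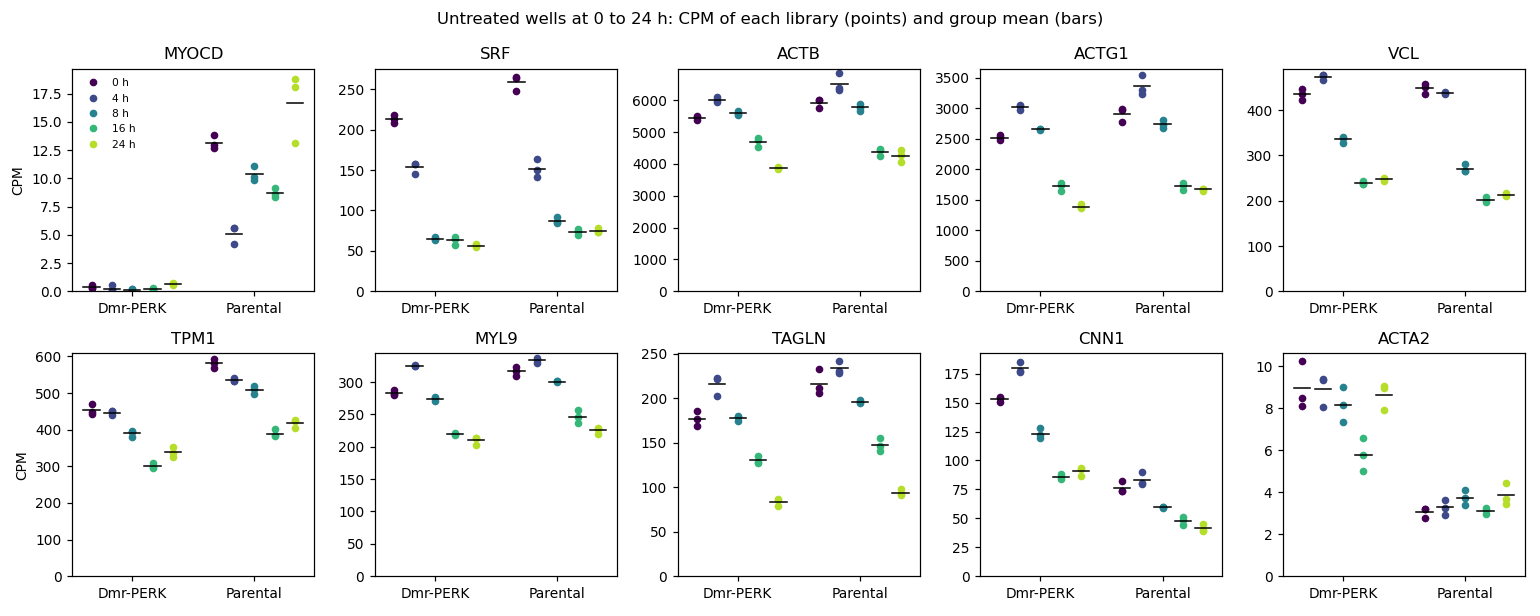
Untreated wells: each panel plots the CPM of 1 gene on a linear axis from 0, with Dmr-PERK wells at the left and Parental wells at the right, points for libraries coloured by time (0 to 24 h) and bars for group means of 3. MYOCD lay below 1 CPM in every Dmr-PERK well and above 4 CPM in every Parental well, CNN1 and ACTA2 were higher in Dmr-PERK cells, and SRF was lower at 8 h and later than at 0 h in both lines.

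The largest difference between the untreated lines among the 10 genes was in MYOCD. It had a lowest, median and highest value of 0.0474, 0.26 and 0.715 CPM in 15 Dmr-PERK wells, against 4.16, 10.1 and 18.8 CPM in 15 Parental wells. No well of one line reached the other. The log2 difference of Dmr-PERK from Parental cells was -5.14 ± 0.11, 35.2-fold lower (edgeR adjusted p = 5.26e-65, 1 to 20 estimated counts per Dmr-PERK well). CNN1 and ACTA2 went the other way, but TAGLN and MYL9 did not. TAGLN averaged 157 CPM in Dmr-PERK wells against 178 CPM in Parental wells, and MYL9 263 against 285 CPM. CNN1 ran over 83.6, 122 and 185 CPM (lowest, median, highest) in Dmr-PERK wells and 38.9, 59.4 and 89.8 CPM in Parental wells, and was higher in Dmr-PERK cells by 1.03 ± 0.02 (edgeR adjusted p = 1.23e-59). ACTA2 ran over 5.02, 8.18 and 10.2 CPM in Dmr-PERK wells and 2.78, 3.25 and 4.46 CPM in Parental wells, with no overlap, and was higher in Dmr-PERK cells by 1.24 ± 0.05 (edgeR adjusted p = 2.06e-40). The other 7 genes differed by -0.33 to 0.17, with ACTB, the smallest of these at -0.06, losing its call without replicate 1 (-0.03) or without replicate 2 (-0.07). In all, 3 of the 10 were higher in Dmr-PERK cells and 7 lower, where 62.5% of all genes tested were called, 30.3% higher and 32.2% lower. The Dmr-PERK line was set against 1 Parental line, so the construct and any other difference between the lines cannot be told apart.

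Time in culture alone moved several of the genes. SRF fell to 56.7, 57.9 and 55.2 CPM in untreated Dmr-PERK wells at 24 h, against 213, 208 and 219 CPM at 0 h. In Parental wells it fell to 73.6, 73.0 and 78.7 CPM at 24 h, against 264, 247 and 265 CPM at 0 h. The log2 change was -1.91 ± 0.05 in Dmr-PERK cells against -1.79 ± 0.05 in Parental cells (edgeR adjusted p = 7.35e-57 and 4.59e-56), most of it reached by 8 h. TAGLN changed by -1.08 ± 0.07 in Dmr-PERK cells against -1.20 ± 0.06 in Parental cells, and ACTB by -0.49 ± 0.05 and -0.47 ± 0.05 in the same order. VCL, CNN1 and ACTG1 lay between those, at -1.07 to -0.75. At 24 h against 0 h, 8 of the 10 genes were lower and none higher in Dmr-PERK cells (31.1% of all genes called), and 8 were lower and MYOCD higher in Parental cells (33.2% called). Every comparison below at 4 h and later is therefore with untreated wells of the same time. At 2 h there were no untreated wells, and treated wells of that time are set against 0 h. Some of the genes were higher in untreated Dmr-PERK wells at 4 h than at 0 h. At 2 h the effect of an agent and change with time in culture thus cannot be told apart.

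Dimerizer in Dmr-PERK cells lowered most of the actin genes, while SRF itself stood above untreated wells of the same time. Averaged over 4, 8, 16 and 24 h, 7 of the 10 genes fell (ACTB, ACTG1, TAGLN, CNN1, MYL9, VCL and TPM1), SRF rose, and ACTA2 and MYOCD did not pass the test. Over all genes tested 55.2% were called, 27.5% higher and 27.7% lower, so a call alone is common in this comparison. The calls shifted over the times, with 4 genes higher and none lower at 2 h (17.7% of all genes called) and 1 higher and 8 lower at 24 h (48.1% called). The median log2 fold change of the 10 genes was -0.48, beside -0.03 over all genes tested. In these bulk samples, fewer cells that express a gene and less of its RNA per cell cannot be told apart.

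SRF had 97.5, 92.3 and 88.1 CPM in dimerizer wells at 24 h, against 56.7, 57.9 and 55.2 CPM in untreated wells. All dimerizer wells lay above the untreated wells of their time at each of the 5 times compared. The log2 fold change grew over the times, with 0.15 ± 0.04 at 4 h, 0.61 ± 0.05 at 16 h and 0.71 ± 0.05 at 24 h, and averaged 0.42 ± 0.02 (edgeR adjusted p = 1.46e-29). Since untreated SRF declined with time, the increase at 4 to 24 h is a smaller decline. The highest dimerizer well of these times, at 173 CPM, lay below all untreated wells at 0 h.

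The cytoplasmic actins fell together. ACTB had 2430.0, 2305 and 2207 CPM in dimerizer wells at 16 h, against 4525, 4751 and 4810.0 CPM in untreated wells. ACTG1 had 907, 847 and 786 CPM in dimerizer wells at 16 h, against 1652, 1751 and 1776 CPM in untreated wells. Both were furthest from untreated wells at 16 h, with log2 fold changes of -1.02 ± 0.05 for ACTB and -1.03 ± 0.05 for ACTG1, and both were less far from untreated wells at 24 h. Over 4 to 24 h ACTB averaged -0.61 ± 0.02 (edgeR adjusted p = 4.34e-42) and ACTG1 -0.58 ± 0.02 (edgeR adjusted p = 8.71e-40). For both genes every dimerizer well lay below the untreated wells it was compared with at all 5 times, though the difference did not pass the test at 2 h in either or at 4 h in ACTG1.

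MYL9 and TPM1, which serve contraction on the filament, fell further by 24 h, though TPM1 was first higher, at 0.18 ± 0.04 at 2 h. MYL9 had 85.7, 79.5 and 88.7 CPM in dimerizer wells at 24 h, against 213, 214 and 202 CPM in untreated wells, a log2 fold change of -1.32 ± 0.05. TPM1 had 131, 135 and 133 CPM in dimerizer wells at 24 h, against 337, 354 and 326 CPM in untreated wells, a log2 fold change of -1.35 ± 0.04. Both were further below untreated wells at 16 and 24 h than at 4 and 8 h. VCL was different in shape: it had 203, 207 and 202 CPM in dimerizer wells at 8 h, against 339.8, 338 and 328 CPM in untreated wells, and its log2 fold change of -0.72 ± 0.04 at 8 h was close to the -0.79 ± 0.04 at 24 h. Averages over 4 to 24 h were -0.72 ± 0.02 for MYL9, -0.68 ± 0.02 for TPM1 and -0.58 ± 0.02 for VCL, with edgeR adjusted p of 5.82e-50, 1.03e-49 and 6.05e-51.

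TAGLN and CNN1 also changed direction with time. CNN1 had 241, 244 and 252 CPM in dimerizer wells at 4 h, against 177, 185 and 177 CPM in untreated wells, and 34.6, 37.4 and 35.1 CPM in dimerizer wells at 16 h, against 83.6, 85.8 and 88.2 CPM in untreated wells. It was thus above untreated wells at 4 h, by a log2 fold change of 0.45 ± 0.05, and below them at 16 h, by -1.27 ± 0.06, with no overlap at either time. TAGLN was higher at 2 h than in untreated wells at 0 h, by 0.37 ± 0.06. Its dimerizer wells all lay above the untreated wells at 3 of the 5 times compared and below them at 2. It was lower at 24 h, by -0.75 ± 0.07, when it had 49.2, 51.0 and 49.5 CPM in dimerizer wells and 86.7, 85.9 and 78.6 CPM in untreated wells. An average over the times hides this: it was -0.20 ± 0.03 for TAGLN and -0.38 ± 0.03 for CNN1. The effect of dimerizer changed between 4 and 24 h in 9 of the 10 genes, MYOCD being the exception (edgeR F-test, 42.1% of all genes called), with adjusted p of 1.90e-41 for CNN1 and 2.51e-15 for TAGLN. ACTA2 averaged -0.01 ± 0.05 and MYOCD 0.25 ± 0.29, neither past the test (edgeR adjusted p = 0.947 and 0.507).

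**Figure D2:**
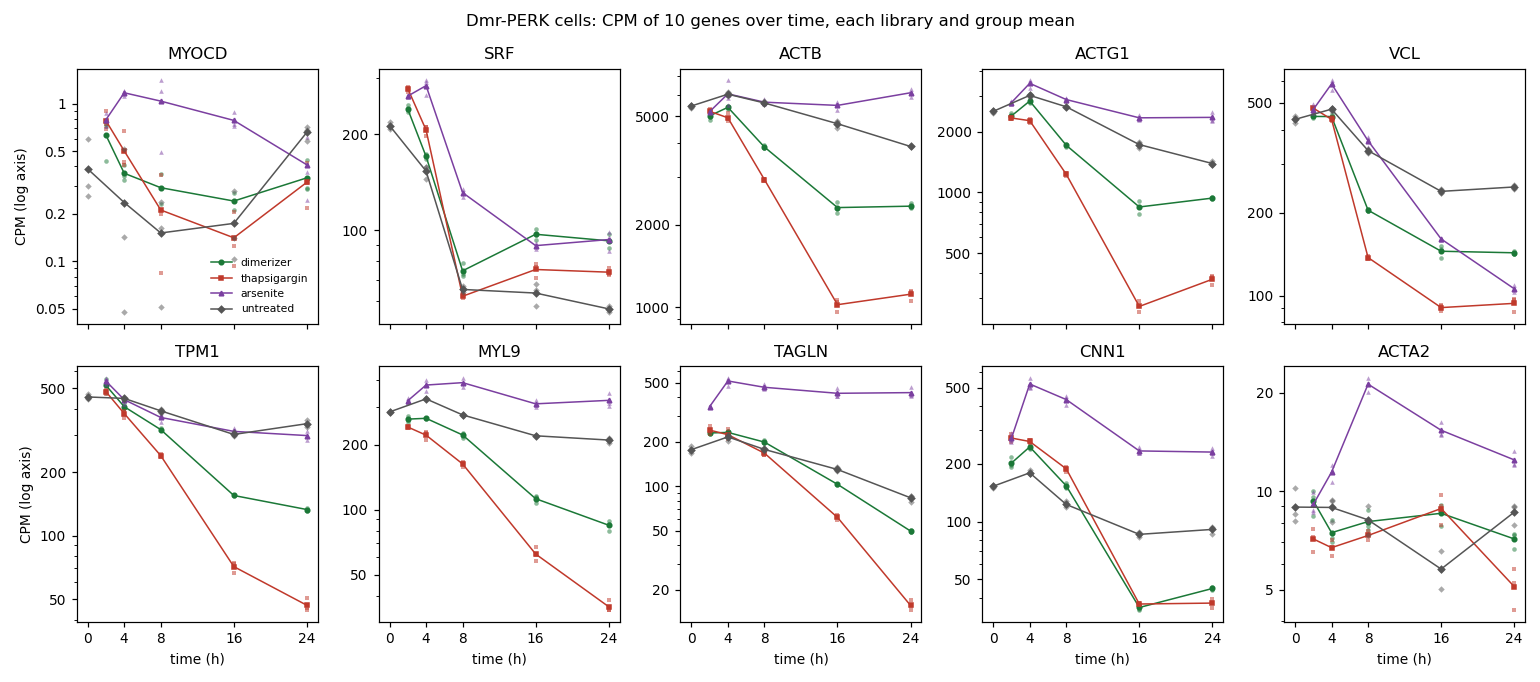
Dmr-PERK cells: each panel plots the CPM of 1 gene on a log axis against time in hours, with points for libraries and lines for means of 3 wells, for dimerizer, thapsigargin, arsenite and untreated wells. With dimerizer and thapsigargin, ACTB, ACTG1, MYL9 and TPM1 moved below untreated wells from 4 h on and CNN1 and TAGLN were below them by 16 h, while with arsenite TAGLN and CNN1 stayed above untreated wells at every time.

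In Parental cells, which lack the construct, the same dose of dimerizer left most of these values near those of untreated wells. Averaged over 4 to 24 h 1 of the 10 genes was called, MYOCD at 0.21 ± 0.05 (edgeR adjusted p = 0.0283), where 0.582% of all genes tested were called. The other 9 averaged -0.03 to 0.08, with TPM1 at 0.08 ± 0.02 (edgeR adjusted p = 0.058). MYOCD ran over 6.43, 10.8 and 18.0 CPM (lowest, median, highest of 12 wells) in dimerizer wells and 4.16, 9.50 and 18.8 CPM in untreated wells, which overlap. That call was lost in the fit to Parental libraries alone (edgeR adjusted p = 0.0856) and whenever 1 replicate number was left out (edgeR adjusted p = 0.167 to 0.341), with no filter on low counts (edgeR adjusted p = 0.0796) and with limma on log2(TPM + 1) (adjusted p = 0.550) or log2(TPM + 0.1) (adjusted p = 0.960). The 1 gene called with limma was TPM1, at 0.09 on either scale (adjusted p = 0.0112 and 0.0118), which was also called with RLE factors, with DESeq2 and without the libraries that stood apart. With DESeq2 TPM1 was the 1 gene of the 10 called, so MYOCD was not called there either. At single times, 4 h had 2 calls, MYOCD at 0.45 ± 0.14 and SRF at -0.30 ± 0.05 (7.52% of all genes called), and the other 4 times had none in edgeR, where 5 of 40 tests had an unadjusted p under 0.05 (0.178% of all genes called at 2 h and 0.0% at 8, 16 and 24 h). SRF at 4 h had 124, 125 and 122 CPM in dimerizer wells, against 164, 150.0 and 142 CPM in untreated wells, a change opposite in sign to that in Dmr-PERK cells.

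The effect of dimerizer differed between the lines in 8 of the 10 genes (47.0% of all genes tested were called for this difference). As Dmr-PERK effect minus Parental effect, it was 0.45 ± 0.03 for SRF, -0.63 ± 0.03 for ACTB, -0.76 ± 0.03 for MYL9 and -0.76 ± 0.03 for TPM1, with edgeR adjusted p of 5.38e-22 or lower for these 4. ACTG1, VCL and CNN1 also passed, at -0.61 to -0.41, and TAGLN at -0.19.

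Thapsigargin lowered most of the actin genes in both lines. In Dmr-PERK cells 8 of the 10 genes fell and SRF rose over 4 to 24 h (63.0% of all genes called, 30.9% higher and 32.2% lower), with 5 of the 8 lower by at least 2-fold (8.68% of all genes). In Parental cells 7 fell and SRF and CNN1 rose (65.1% of all genes called, 30.1% higher and 35.0% lower), again with 5 lower by at least 2-fold (9.33% of all genes). The CNN1 increase there, 0.11 ± 0.03, was 0.06 and not called with upper-quartile factors (edgeR adjusted p = 0.0586). The median over the 10 genes was -0.97 in Dmr-PERK cells against -1.10 in Parental cells, beside 0.00 and -0.06 over all genes tested.

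ACTG1 was furthest below untreated wells at 16 h. It had 288, 274 and 254 CPM in thapsigargin wells, against 1652, 1751 and 1776 CPM in untreated Dmr-PERK wells, a log2 fold change of -2.66 ± 0.05. In Parental cells it had 463, 482 and 489.8 CPM in thapsigargin wells, against 1775, 1751 and 1667 CPM in untreated wells, a log2 fold change of -1.86 ± 0.05. ACTB had 1039.5, 1063 and 957 CPM in thapsigargin wells at 16 h, against 4525, 4751 and 4810.0 CPM in untreated Dmr-PERK wells, and its log2 fold change at 16 h was -2.20 ± 0.05 in Dmr-PERK cells against -2.00 ± 0.05 in Parental cells. The most abundant of the 10 genes was thus 4.60-fold lower at 16 h in Dmr-PERK cells, and no ACTB or ACTG1 value of a thapsigargin well of either line overlapped those of the untreated wells it was compared with at any of the 5 times. Averages over 4 to 24 h were -1.31 ± 0.02 in Dmr-PERK cells against -1.40 ± 0.02 in Parental cells for ACTB (edgeR adjusted p = 1.39e-69 and 3.90e-72).

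TPM1, MYL9 and TAGLN were lowest at 24 h. TPM1 had 45.4, 50.6 and 44.4 CPM in thapsigargin wells at 24 h, against 337, 354 and 326 CPM in untreated Dmr-PERK wells, 7.27-fold lower. MYL9 had 34.3, 38.0 and 34.2 CPM in thapsigargin wells at 24 h, against 213, 214 and 202 CPM in untreated wells, 5.94-fold lower. TAGLN had 15.5, 17.0 and 14.6 CPM in thapsigargin wells at 24 h, against 86.7, 85.9 and 78.6 CPM in untreated wells, 5.39-fold lower. The edgeR adjusted p for the 3 genes at 24 h was 4.38e-46 or lower, and Parental cells gave log2 fold changes of -2.73, -2.08 and -2.58 in the same order. VCL had 136, 139 and 137 CPM in thapsigargin wells at 8 h, against 339.8, 338 and 328 CPM in untreated Dmr-PERK wells, and as with dimerizer it stayed near that distance, at -1.29 ± 0.04 at 8 h and -1.41 ± 0.04 at 24 h.

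The early and late responses of CNN1 again had opposite signs. TAGLN wells of Parental cells given thapsigargin all lay above untreated wells at 3 of the 5 times compared and below them at 2. For TAGLN in Dmr-PERK cells, thapsigargin wells all lay above untreated wells at 1 of 5 times, overlapped them at 2 and lay below at 2. The increase was at 2 h, set against 0 h, so the agent and time in culture cannot be told apart in it. At 2 h in Dmr-PERK cells SRF, CNN1, TAGLN, VCL and MYOCD were called higher and MYL9 and ACTA2 lower (33.2% of all genes called). The MYOCD call was lost without replicate 1 or 2 (edgeR adjusted p = 0.181 and 0.154) and with limma on log2(TPM + 1) (adjusted p = 0.122). At that time CNN1 had 287, 269.9 and 261 CPM in thapsigargin wells, against 154, 150.5 and 155 CPM in untreated wells at 0 h. At 24 h it had 37.7, 39.6 and 35.6 CPM in thapsigargin wells, against 92.9, 86.6 and 93.8 CPM in untreated wells. The log2 fold change was 0.83 ± 0.05 at 2 h and -1.28 ± 0.06 at 24 h. In Parental cells CNN1 was at 0.74 ± 0.06 at 2 h and at -0.13 ± 0.06 at 24 h, the second not past the test (edgeR adjusted p = 0.08), and its average differed between the lines by -0.44 ± 0.04 (edgeR adjusted p = 3.49e-16). The thapsigargin effect differed between the lines in 6 of the 10 genes (25.7% of all genes called), but apart from MYOCD and CNN1 by no more than 0.17 in either direction among those called. For ACTB this call, at 0.09, was lost without replicate 1 (0.05) or without replicate 2 (0.08), and those of ACTG1 and MYL9 were lost on log2(TPM + 1).

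SRF had 72.7, 76.4 and 72.4 CPM in thapsigargin wells at 24 h, against 56.7, 57.9 and 55.2 CPM in untreated Dmr-PERK wells. In Parental cells it had 90.2, 93.1 and 93.8 CPM in thapsigargin wells at 24 h, against 73.6, 73.0 and 78.7 CPM in untreated wells. Its log2 fold change averaged 0.25 ± 0.02 in Dmr-PERK cells against 0.25 ± 0.02 in Parental cells (edgeR adjusted p = 5.94e-16 and 1.03e-17), and 8 h was the 1 time at which it was not above untreated wells in either line, at -0.07 ± 0.05 in Dmr-PERK cells against -0.27 ± 0.05 in Parental cells. ACTA2 averaged -0.17 ± 0.05 in Dmr-PERK cells against -0.15 ± 0.07 in Parental cells, the Parental value not past the test (edgeR adjusted p = 0.0507). On log2(TPM + 1) with limma the order of calls was the other way, at -0.08 and not called in Dmr-PERK cells (adjusted p = 0.189) and -0.14 and called in Parental cells (adjusted p = 0.0190). The Dmr-PERK call was also lost without replicate 2 (edgeR adjusted p = 0.0724), and the Parental value was called with RLE factors, upper-quartile factors and DESeq2 too (adjusted p = 0.00741 to 0.0397).

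**Figure D3:**
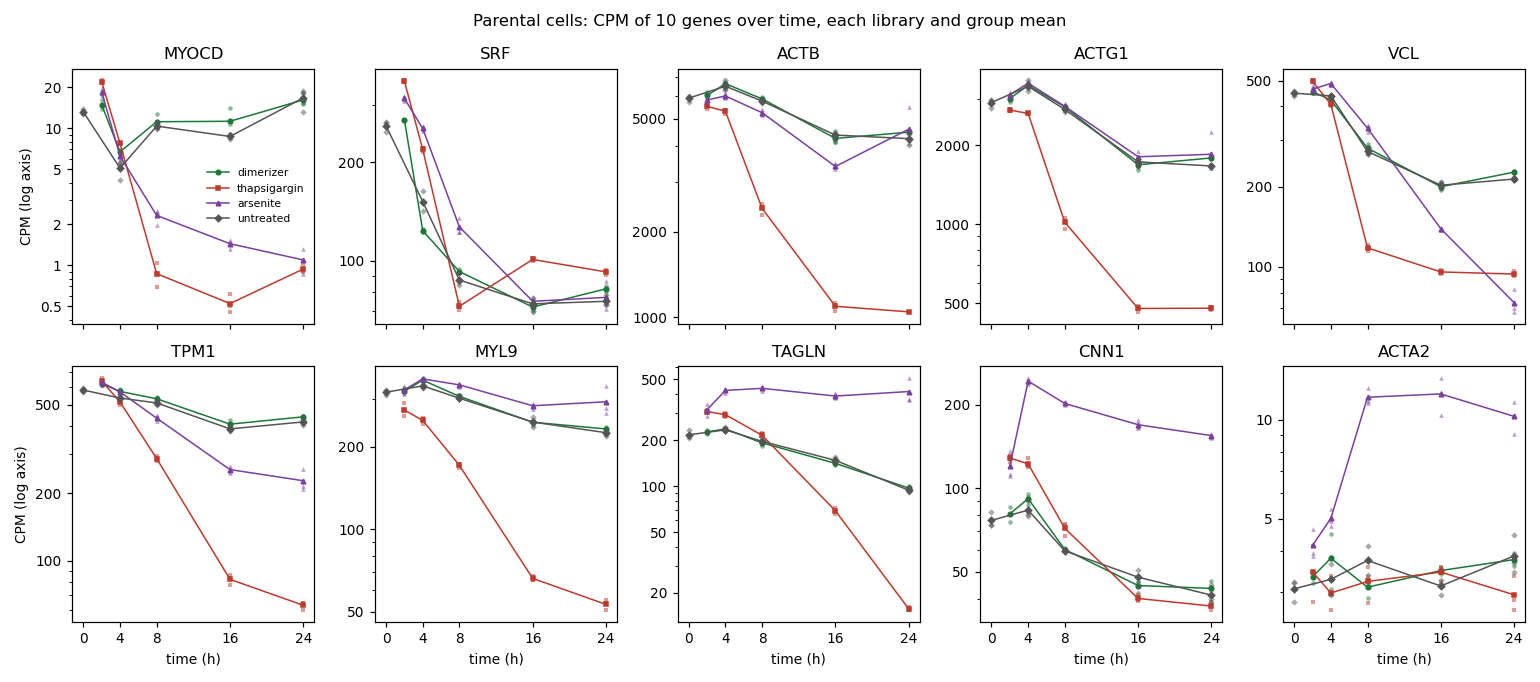
Parental cells: each panel plots the CPM of 1 gene on a log axis against time in hours, with points for libraries and lines for means of 3 wells, for dimerizer, thapsigargin, arsenite and untreated wells. Dimerizer wells lay close to untreated wells, thapsigargin wells fell below them for ACTB, ACTG1, VCL, TPM1 and MYL9 by 8 h, and MYOCD fell below them from 8 h with thapsigargin and with arsenite.

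With arsenite TAGLN, CNN1 and ACTA2 rose in both lines. In Dmr-PERK cells 8 of the 10 genes rose and VCL and TPM1 fell (83.6% of all genes called, 44.4% higher and 39.2% lower), with MYOCD, TAGLN and CNN1 higher by at least 2-fold (25.6% of all genes). In Parental cells 6 rose and MYOCD, ACTB, VCL and TPM1 fell (82.1% of all genes called, 42.7% higher and 39.4% lower), with ACTA2, TAGLN and CNN1 higher by at least 2-fold (22.5% of all genes). The median over the 10 genes was 0.62 in Dmr-PERK cells against 0.14 in Parental cells, beside 0.12 and 0.09 over all genes tested. With arsenite the scaling of libraries matters more than with the other agents: other factors and units moved the median of all genes by -0.30 to 0.25, and some small changes lost their call or turned sign with them.

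TAGLN rose at every time in both lines. It had 408, 413 and 469 CPM in arsenite wells at 24 h, against 86.7, 85.9 and 78.6 CPM in untreated Dmr-PERK wells. Parental cells had 364, 374 and 510.0 CPM in arsenite wells at 24 h, against 98.3, 90.9 and 92.7 CPM in untreated wells, the highest value being that of the library that stood apart. The Parental log2 fold change at 24 h was 2.14 ± 0.06 with that library and 1.95 without it. The log2 fold change climbed over the times in Dmr-PERK cells, with 0.97 ± 0.06 at 2 h, 1.40 ± 0.06 at 8 h and 2.36 ± 0.06 at 24 h, while the level itself was highest at 4 h, at 516 ± 35.4 CPM (SD, n = 3). It averaged 1.68 ± 0.03 in Dmr-PERK cells against 1.39 ± 0.03 in Parental cells (edgeR adjusted p = 2.35e-70 and 8.93e-64).

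The level of CNN1 was highest at 4 h with arsenite in both lines. It had 560.2, 499 and 506 CPM in arsenite wells at 4 h, against 177, 185 and 177 CPM in untreated Dmr-PERK wells. Parental cells had 238, 242 and 249 CPM in arsenite wells at 4 h, against 89.8, 80.9 and 79.6 CPM in untreated wells. No arsenite well overlapped the untreated wells it was compared with, and the averages over 4 to 24 h were 1.54 ± 0.03 in Dmr-PERK cells against 1.76 ± 0.03 in Parental cells (edgeR adjusted p = 6.61e-74 and 8.95e-77). The level of ACTA2 was highest later, with 22.2, 21.4 and 20.1 CPM in arsenite wells at 8 h, against 7.34, 8.18 and 9.01 CPM in untreated Dmr-PERK wells, and 10.4, 13.4 and 12.2 CPM in arsenite wells at 16 h, against 2.94, 3.17 and 3.25 CPM in untreated Parental wells. Its averages were 0.93 ± 0.04 in Dmr-PERK cells against 1.41 ± 0.06 in Parental cells (edgeR adjusted p = 8.50e-36 and 3.43e-42).

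SRF rose most at 4 and 8 h. It had 296, 265 and 292 CPM in arsenite wells at 4 h, against 158, 158 and 145 CPM in untreated Dmr-PERK wells. In Parental cells it had 258, 249 and 255 CPM in arsenite wells at 4 h, against 164, 150.0 and 142 CPM in untreated wells. The increase lasted to 24 h in Dmr-PERK cells, at 0.73 ± 0.05, while in Parental cells SRF was at 0.02 ± 0.05 at 16 h and 0.04 ± 0.05 at 24 h, neither past the test (edgeR adjusted p = 0.655 and 0.483). Averages were 0.78 ± 0.02 in Dmr-PERK cells against 0.34 ± 0.02 in Parental cells, and differed between the lines by 0.44 ± 0.03 (edgeR adjusted p = 2.01e-21). On log2(TPM + 1) the Parental average was 0.04 and not called (limma adjusted p = 0.0632).

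VCL changed sign within the day. It had 604, 555 and 597 CPM in arsenite wells at 4 h, against 477, 468 and 478 CPM in untreated Dmr-PERK wells, and 105, 103 and 109.5 CPM in arsenite wells at 24 h, against 243, 251 and 249 CPM in untreated wells. Parental cells had 67.5, 69.9 and 82.6 CPM in arsenite wells at 24 h, against 217, 212 and 211 CPM in untreated wells, the highest arsenite value being that of the library that stood apart. At 4 h the log2 fold change was 0.30 ± 0.03 in Dmr-PERK cells against 0.15 ± 0.03 in Parental cells, and at 24 h it was -1.22 ± 0.04 and -1.54 ± 0.04 in the same order (edgeR adjusted p = 1.30e-51 and 4.41e-58). VCL and TAGLN, both genes that SRF is known to control, stood at opposite ends of the 10 genes with arsenite at 24 h in Dmr-PERK cells. The part of SRF in either change was not tested.

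The cytoplasmic actins had small average changes with arsenite. ACTB had 6100.2, 5876 and 6316 CPM in arsenite wells at 24 h, against 3894, 3843 and 3888 CPM in untreated Dmr-PERK wells, and 4108, 4207 and 5489 CPM in arsenite wells at 24 h, against 4291, 4440.0 and 4050.1 CPM in untreated Parental wells. The 5489 CPM is that of the Parental library that stood apart, and the other arsenite wells there lay within or near the untreated range. Averages over 4 to 24 h were 0.22 ± 0.02 in Dmr-PERK cells against -0.13 ± 0.02 in Parental cells (edgeR adjusted p = 1.34e-14 and 1.30e-06), but the Dmr-PERK value was 0.01 on log2(TPM + 1) (limma adjusted p = 0.789) and the Parental value 0.12 with upper-quartile factors and -0.01, not called, with RLE factors (edgeR adjusted p = 0.652). ACTG1 averaged 0.38 ± 0.02 and MYL9 0.45 ± 0.02 in Dmr-PERK cells. In Parental cells ACTG1 averaged 0.07, which was 0.02 and not called without the library that stood apart (edgeR adjusted p = 0.213) and -0.29 on log2(TPM + 1). MYL9 averaged 0.20 there, and -0.07 on log2(TPM + 1). TPM1 averaged -0.06 ± 0.02 in Dmr-PERK cells, which was 0.05 to 0.18 with the other scaling factors tried and not called without replicate 2 (edgeR adjusted p = 0.121), and -0.40 ± 0.02 in Parental cells, where it fell to 209.5, 217 and 258 CPM in arsenite wells at 24 h, against 427, 404 and 423 CPM in untreated wells. The 258 CPM again came from the library that stood apart. All 10 genes were called for a difference between the lines in the arsenite effect (42.2% of all genes called), VCL losing its call without replicate 1 or 2.

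**Figure D4:**
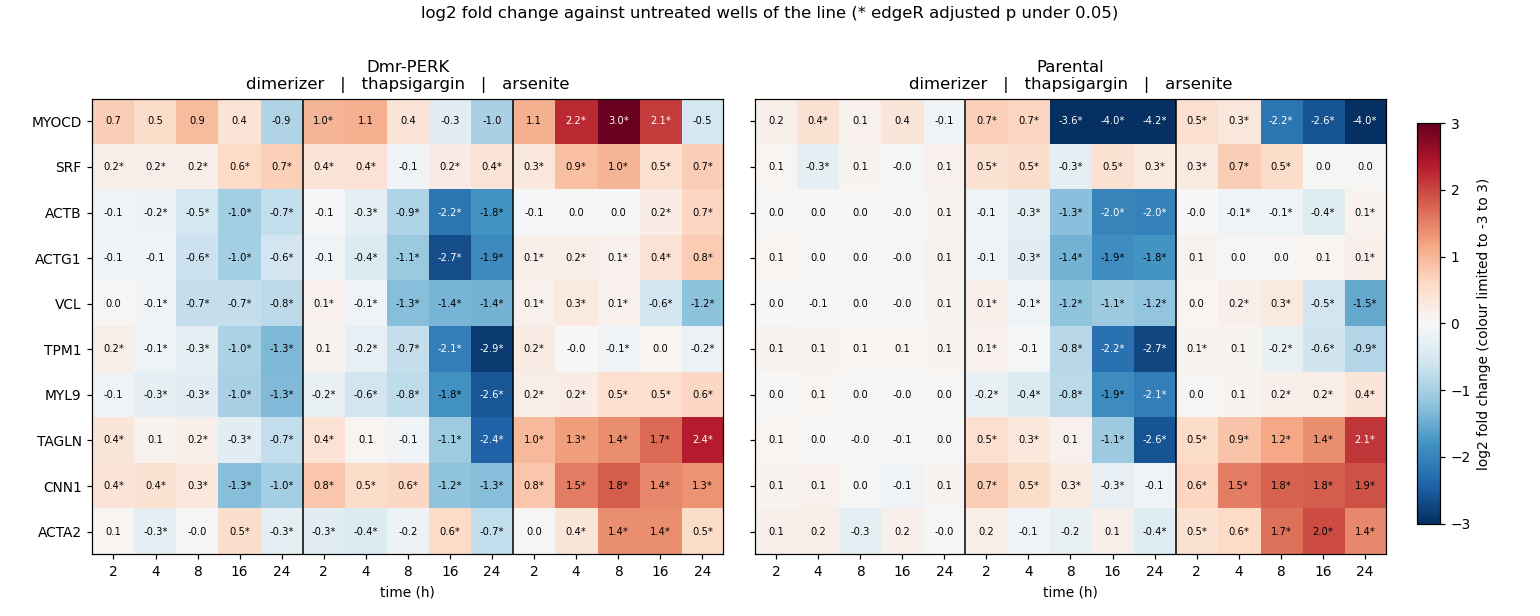
Log2 fold change of each of the 10 genes (rows) against untreated wells of the line at that time (2 h against 0 h), for dimerizer, thapsigargin and arsenite at 2, 4, 8, 16 and 24 h, Dmr-PERK cells at the left and Parental cells at the right. Stars mark an edgeR adjusted p under 0.05, and colours stop at -3 and 3. The late decreases of ACTB, ACTG1, TPM1, MYL9 and TAGLN with thapsigargin, to -2.86 for TPM1 in Dmr-PERK cells, stand beside the increases of TAGLN and CNN1 with arsenite, to 2.36 for TAGLN.

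MYOCD answered differently in the lines, from very different levels. In Parental cells it was above untreated wells at 2 and 4 h of thapsigargin and below them from 8 h on. It had 22.4, 21.9 and 21.3 CPM in thapsigargin wells at 2 h, against 13.8, 12.7 and 13.0 CPM in untreated wells at 0 h, and 0.615, 0.506 and 0.454 CPM in thapsigargin wells at 16 h, against 8.38, 8.61 and 9.14 CPM in untreated wells. Arsenite gave the same order, with 19.7, 18.2 and 17.4 CPM in arsenite wells at 2 h, against the same untreated wells, and 1.10, 0.857 and 1.32 CPM in arsenite wells at 24 h, against 18.8, 13.1 and 18.1 CPM in untreated wells. The 1.32 CPM is that of the library that stood apart. Treated and untreated wells did not overlap at any of these times. The log2 fold change with thapsigargin was 0.73 ± 0.09 at 2 h and -4.03 ± 0.19 at 16 h, and with arsenite 0.47 ± 0.09 at 2 h and -3.97 ± 0.17 at 24 h. Averages over 4 to 24 h were -2.78 ± 0.09 with thapsigargin and -2.09 ± 0.08 with arsenite (edgeR adjusted p = 1.20e-49 and 1.39e-42). Both averages take in 4 h, when the treated wells still lay above the untreated ones. TAGLN and CNN1, which myocardin is known to drive in smooth muscle, rose with arsenite in the same Parental wells. Whether MYOCD acts on either gene in these cells was not tested.

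In Dmr-PERK cells MYOCD had 1.41, 1.21 and 0.494 CPM in arsenite wells at 8 h, against 0.163, 0.0511 and 0.24 CPM in untreated wells. The arsenite values lay above the untreated ones at 2, 4, 8 and 16 h but rested on 6 to 72 estimated counts per well, and the average over 4 to 24 h was 1.69 ± 0.23 (edgeR adjusted p = 3.12e-10). With dimerizer and with thapsigargin no change in the average over 4 to 24 h was detectable at this depth, where the 12 thapsigargin wells held 2 to 30 estimated counts. The difference between the lines in the effect was 2.82 ± 0.39 for thapsigargin and 3.78 ± 0.25 for arsenite (edgeR adjusted p = 2.96e-09 and 2.44e-24).

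Set directly against each other over 2 to 24 h, without the untreated wells, the agents stood in the same order for 8 of the 10 genes in Dmr-PERK cells, thapsigargin lowest and arsenite highest. All 10 were lower with dimerizer than with arsenite (80.4% of all genes called, 42.6% lower) and all 10 were lower with thapsigargin than with arsenite (80.8% called, 43.5% lower). Dimerizer stood above thapsigargin in 8 of the 10 (47.1% called, 26.2% higher), below it in CNN1, and MYOCD did not pass. These comparisons share wells with each other. The widest gap was in TAGLN, at -2.16 ± 0.03 for thapsigargin against arsenite and -1.63 ± 0.03 for dimerizer against arsenite. ACTB was at 0.54 ± 0.02 for dimerizer against thapsigargin, and SRF at 0.09 ± 0.02. The edgeR adjusted p of these 4 values was 5.52e-05 or lower. In Parental cells 9 of the 10 were lower with thapsigargin than with arsenite (79.2% called, 42.3% lower), SRF being the exception at -0.03 ± 0.02 (edgeR adjusted p = 0.174). The dose of each agent was 1 only, so these are differences between the doses used.

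Across the 40 groups the 10 genes fell into different patterns of level. On log2(CPM + 1), Pearson's r of the group means was 0.926 to 0.980 for the 6 pairs among ACTB, ACTG1, MYL9 and TPM1. VCL reached 0.678 to 0.813 with those 4. SRF was at -0.065 to 0.762 with the 8 genes other than MYOCD, below the range among ACTB, ACTG1, MYL9 and TPM1. These are descriptions over groups that share lines, times and libraries. Of all genes tested at a mean of 5 CPM or more, those most like ACTB over the 40 groups were ACTG1 (r = 0.980), MYL9 (r = 0.959) and TPM1 (r = 0.940). Those most like SRF were NR4A3 (r = 0.918), NKX2-5 (r = 0.896) and SPATA2L (r = 0.889). Those most like TAGLN were AQP1 (r = 0.896), LANCL2 (r = 0.892) and MYL9 (r = 0.885), and those most like VCL were CMTM3 (r = 0.936), LINC00165 (r = 0.933) and BMPR2 (r = 0.923).

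Other genes of the pathway were counted in Dmr-PERK cells beside the shares over all genes tested, which were 27.5% higher and 27.7% lower with dimerizer, 30.9% and 32.2% with thapsigargin, and 44.4% and 39.2% with arsenite. Of 25 further targets of SRF and MRTF, such as filamins, myosins and tropomyosins, 18 fell and 6 rose with dimerizer (median -0.19), 23 fell and 1 rose with thapsigargin (median -0.55), and 9 fell and 15 rose with arsenite (median 0.16), the share lower with arsenite lying near that over all genes. MYLK, the kinase that phosphorylates myosin light chains, changed by -0.97 ± 0.04 with dimerizer and -1.68 ± 0.04 with thapsigargin (log2 fold change), and MYL6, a further myosin light chain, by -0.87 ± 0.03 and -1.15 ± 0.03. FLNC, filamin C, which crosslinks filaments, rose with dimerizer at 0.43 ± 0.04 and with arsenite at 1.66 ± 0.04, and PDLIM5, an adaptor of actin-bound sites, with arsenite at 1.16 ± 0.03. MYH10, a non-muscle myosin heavy chain, and CTGF, a secreted matrix protein, changed by -1.24 ± 0.02 and -1.07 ± 0.04 with arsenite.

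The immediate early genes that SRF serves with TCF moved in another pattern. Of 10 such genes 6 rose and 1 fell with dimerizer (median 0.28), 5 rose and 3 fell with thapsigargin (median 0.14), and 9 rose and 1 fell with arsenite (median 2.02). FOS, a subunit of AP-1, rose by 4.65 ± 0.05 and FOSB by 4.88 ± 0.14 with arsenite, and EGR1, a zinc finger factor, by 1.30 ± 0.07 with dimerizer and 1.15 ± 0.07 with thapsigargin. JUNB was the 1 gene that fell with arsenite, at -0.72 ± 0.05.

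Of 20 partners of SRF and their regulators, 9 rose and 8 fell with dimerizer (median 0.06), 9 rose and 10 fell with thapsigargin (median -0.11), and 7 rose and 10 fell with arsenite (median -0.06). Increases and decreases were thus about as many with dimerizer and thapsigargin, as over all genes. With arsenite more of the 20 fell than rose, while over all genes more rose than fell. MKL2, the gene of MRTFB, changed by -0.44 ± 0.04 with dimerizer, -0.86 ± 0.04 with thapsigargin and -3.08 ± 0.05 with arsenite, and in Parental cells by -2.78 ± 0.05 with arsenite. ARHGEF2, an exchange factor for RHOA, rose by 2.20 ± 0.02 with dimerizer, 2.23 ± 0.02 with thapsigargin and 1.75 ± 0.02 with arsenite. RND3, an antagonist of RHOA signalling, rose by 0.98 ± 0.03 with dimerizer and 1.18 ± 0.03 with thapsigargin, and LIMK2, which inactivates the severing protein cofilin, by 2.01 ± 0.02 with arsenite. SCAI, a repressor that binds MRTF proteins, fell with each agent, at -0.53 ± 0.05, -0.66 ± 0.05 and -1.20 ± 0.06 for dimerizer, thapsigargin and arsenite.

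Of 21 genes that turn actin monomers and filaments over, 14 fell and 5 rose with dimerizer (median -0.17), 16 fell and 1 rose with thapsigargin (median -0.20), and 7 fell and 9 rose with arsenite (median 0.01). TMSB4X, thymosin β4, which holds actin monomers, changed by -0.93 ± 0.04 with dimerizer and -1.38 ± 0.04 with thapsigargin, and GSN, gelsolin, which severs filaments, by -1.06 ± 0.05 and -1.74 ± 0.06. DSTN, destrin, was the 1 gene of this list that rose with thapsigargin, at 0.26 ± 0.02. The other 3 actins tested, ACTA1, ACTC1 and ACTG2, all rose with arsenite (median 1.15), ACTC1 at 2.03 ± 0.14, and none was called with dimerizer.

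Tubulins, which build microtubules, were counted in the same way. Of 11 tubulin genes 10 fell and none rose with dimerizer (median -0.75), all 11 fell with thapsigargin (median -1.29), and 8 fell and 3 rose with arsenite (median -0.50). TUBB3 changed by -1.56 ± 0.03 with dimerizer, -2.06 ± 0.03 with thapsigargin and 0.85 ± 0.02 with arsenite. In Parental cells given dimerizer, edgeR called none of the 90 genes of these 6 lists, of which 11 had an unadjusted p under 0.05. Over all genes tested 0.582% were called there, so no call among 90 is near that share. With thapsigargin 18 of the 25 SRF and MRTF targets fell and 4 rose in Parental cells and all 11 tubulin genes fell, where 35.0% of all genes were lower and 30.1% higher. With arsenite all 10 immediate early genes rose there, where 42.7% of all genes were higher.

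**Figure D5:**
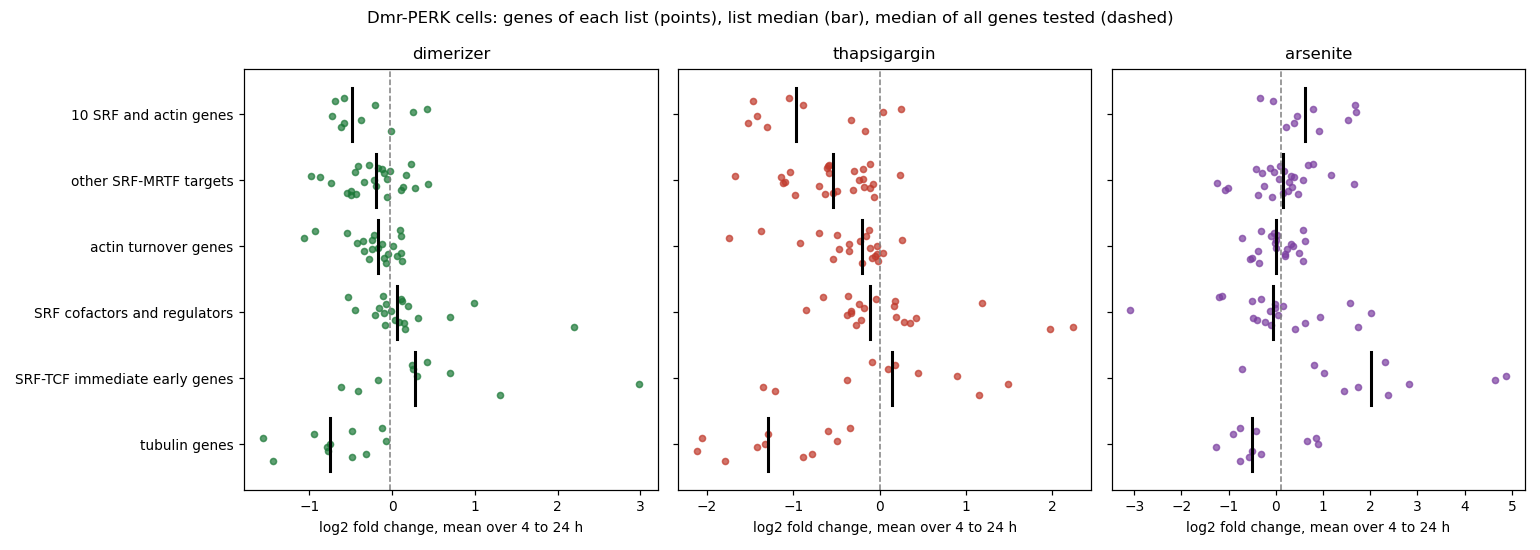
Dmr-PERK cells: each point is the log2 fold change of 1 gene, averaged over 4 to 24 h, by gene list (rows) and agent (panels), with a bar for the list median and a dashed line for the median of all genes tested. The 10 SRF and actin genes and the tubulin genes lie mostly to the left with dimerizer and thapsigargin, and the immediate early genes lie mostly to the right with arsenite, at a median of 2.02.

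Markers of the labelled cell type and of muscle had these levels beside the results. The summed CPM of 8 osteoblast markers, most of it COL1A1, ran from 408 to 1163 in dimerizer wells, 217 to 1038 in thapsigargin wells and 877 to 1484 in arsenite wells of Dmr-PERK cells, against 932 to 1271 in untreated wells. In Parental cells it ran from 3866 to 4707 in dimerizer wells, 1253 to 2817 in thapsigargin wells and 1922 to 3584 in arsenite wells, against 3866 to 4585 in untreated wells. The summed CPM of 7 smooth muscle markers outside the 10 genes, most of it SMTN, ran from 116 to 245 in dimerizer wells, 96.1 to 272 in thapsigargin wells and 209 to 311 in arsenite wells of Dmr-PERK cells, against 161 to 267 in untreated wells (15 wells each). Of these 7 markers 3 fell and none rose with dimerizer, 3 fell and 2 rose with thapsigargin, and 1 fell and 4 rose with arsenite (4 to 24 h), so 3, 5 and 5 of 7 were called where 55.2%, 63.0% and 83.6% of all genes were. The summed CPM of 10 skeletal and cardiac muscle markers ran from 5.59 to 51.6 in dimerizer wells, 3.04 to 45.8 in thapsigargin wells and 32.6 to 54.3 in arsenite wells, against 20.7 to 44.0 in untreated wells. The part of these levels in the values of the 10 genes was not tested.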

How the data were processed

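Total RNA of 120 wells of U2OS cells was sequenced with a directional library kit, per the labels' protocols. The authors deposited estimated counts and TPM per gene, made with Salmon 0.9.1 on GRCh38 after FastQC 0.11.5, per the submitters' processing notes. Salmon's settings, including strand, are not given in the sources used here. The deposited expected counts were rounded to whole numbers. Library totals ran from 1.29e+07 to 5.65e+07 with a median of 2.23e+07, and intervals from counts cover counting error only.

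Genes that reached a count of about 10 in too few libraries were dropped (edgeR's filterByExpr), which left 26998 of 57665. The quasi-likelihood test of edgeR 4.0.16 in R 4.3.3 was fitted to all 40 groups with TMM factors. Calls use an adjusted p under 0.05 (Benjamini-Hochberg over all genes tested). CPM values are rounded counts scaled to a library size of 1e+06 after TMM, and values after ± beside a log2 fold change are standard errors derived from the F statistic. On simulated counts of the same 26998 genes for the dimerizer average in Dmr-PERK cells, 80% of 100 genes changed 2-fold and 64% of 100 changed by a log2 of 0.5 were recovered, with 3 unchanged genes called. Unlike the data, the simulation set 1 dispersion for all genes and left every other gene the same in all groups. These shares therefore do not give the power or error rate of the comparisons here.

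Averages weigh 4, 8, 16 and 24 h equally and are set against untreated wells of those times, and 2 h is set against 0 h. Alternatives were limma 3.58.1 on log2(TPM + 1) and log2(TPM + 0.1), DESeq2 1.42.0, other scaling factors, no filter, each line fitted alone, each replicate number left out, a replicate block, and, added after seeing the data, the libraries that stood apart left out. The members and the gene lists were chosen with earlier results of these data known. Of the 10 genes, all are accounted for, and full values are given for those called with a log2 fold change of at least 0.5 in size at a mean of 1 CPM or more in the higher group, and for SRF, ACTB and TAGLN. From each other list, names were limited to the called genes with the 2 largest increases and the 2 largest decreases at 5 CPM or more.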

Additional observations from a re-analysis of the deposited data

Results flagged for a closer look

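The effect of an agent, averaged over 4 to 24 h, differed between the lines in the values below, each the log2 effect in Dmr-PERK cells minus that in Parental cells, past an edgeR adjusted p of 0.05 for the difference itself.

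For dimerizer the difference was 0.45 for SRF, -0.63 for ACTB, -0.61 for ACTG1, -0.19 for TAGLN, -0.41 for CNN1, -0.76 for MYL9, -0.59 for VCL and -0.76 for TPM1. The Parental effects of these 8 genes lay near 0, so the values are close to the effects in Dmr-PERK cells.

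For thapsigargin it was 2.82 for MYOCD, 0.090 for ACTB, -0.17 for ACTG1, -0.44 for CNN1, -0.12 for MYL9 and -0.16 for VCL. MYOCD had a log2 effect of 0.04 in Dmr-PERK cells against -2.78 in Parental cells, at 2 to 30 estimated counts per thapsigargin well in Dmr-PERK cells.

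For arsenite it was 3.78 for MYOCD, 0.44 for SRF, 0.35 for ACTB, 0.31 for ACTG1, -0.49 for ACTA2, 0.29 for TAGLN, -0.22 for CNN1, 0.25 for MYL9, 0.068 for VCL and 0.34 for TPM1. MYOCD had a log2 effect of 1.69 in Dmr-PERK cells against -2.09 in Parental cells, so the signs were opposite.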

How the results depend on the processing

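The 258 log2 fold changes of the 10 genes checked here were partly selected. Averages against untreated wells and differences between the lines entered whether called or not. Other results entered only where already called with a log2 fold change of at least 0.5 in size. How many kept their call was thus partly set by this choice and is not a rate for all results. Over the 258, 2999 recomputed values stayed on the same side of the threshold, 37 lost the call, 11 gained it and 8 reversed. A change of sign was counted as a reversal only where the main or the alternative fit called the gene. Uncalled values that changed sign are thus among the 2999. The 8 were all arsenite averages: TPM1 in Dmr-PERK cells, -0.06, was 0.049 with RLE factors, 0.18 with upper-quartile factors and 0.049 with DESeq2. In Parental cells ACTB, -0.13, was 0.12 with upper-quartile factors, ACTG1, 0.07, was -0.29 on log2(TPM + 1) and on log2(TPM + 0.1), and MYL9, 0.20, was -0.069 on both. The cause was not tested. With arsenite in Parental cells the share of calls that were higher was 52.0%, against 63.3% with upper-quartile factors and 42.1% on log2(TPM + 1), and in Dmr-PERK cells 53.1%, against 63.5% with upper-quartile factors. With dimerizer in Dmr-PERK cells it was 49.8%, against 38.8% with upper-quartile factors. For the difference between the lines it was 50.6% with dimerizer, against 39.9% with upper-quartile factors, 44.0% with thapsigargin, against 62.2% on log2(TPM + 1), and 55.7% with arsenite, against 72.1% on log2(TPM + 1). With dimerizer in Parental cells, where 157 genes were called, it was 56.1%, against 25% to 71.3% under the alternatives, which called 4 (without replicate 2) to 384 genes (without the libraries that stood apart).

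The count of genes called for dimerizer in Parental cells, 1, was 2 with RLE factors, 0 with no filter on low counts, 0 in the fit to that line alone, 2 without the libraries that stood apart, and 0 to 0 with 1 replicate number left out. The counts of the other 9 comparisons stayed within 1.5 times under every alternative run.

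Replicate numbers do not pair the samples: the deviations of 72 same-numbered pairs had correlations of -0.041 to 0.126, with 2 over 0.1. With the replicate block the count for dimerizer in Dmr-PERK cells was 8 and that for Parental cells 1, and no call was lost.

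MYOCD in Dmr-PERK cells is limited by depth, with 111 estimated counts summed over 15 untreated wells, and its call at 2 h of thapsigargin was lost without replicate 1 (0.86) or replicate 2 (0.93).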
